A study of Mus musculus with 6 samples.

Results

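The major histocompatibility complex (MHC) class II genes were examined in RNA from stimulated primary osteocyte cultures of WT mice and of mice labelled cKO. MHC class II molecules present peptides from the endosome to CD4 T cells. Each molecule pairs an α and a β chain, which are escorted from the endoplasmic reticulum by the invariant chain, and the DM heterodimer then exchanges the remaining piece of the invariant chain for a peptide. Transcription of these genes in dendritic cells, macrophages and B cells depends on the coactivator CIITA, which is recruited by factors bound to the X and Y boxes of their promoters, and in many other cell types CIITA is made only after exposure to interferon-γ. The 8 genes were taken by symbol from the gene table, which lists 56748 genes. They are the classical chains *H2-Aa*, *H2-Ab1* and *H2-Eb1*, the DM chains *H2-DMa*, *H2-DMb1* and *H2-DMb2*, the invariant chain *Cd74* and the coactivator *Ciita*.

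There were 6 libraries, 3 labelled WT and 3 labelled cKO. WT cells came from C57BL/6J mice, and the cKO mice carried floxed *Gsdmd* alleles together with Cre under the *Dmp1* promoter, which is active in osteocytes. Long bones of mice aged 7 weeks were flushed and digested in steps, and released cells and the remaining bone pieces were grown together for 7 days. All 6 cultures were then primed with lipopolysaccharide (10 ng/mL, 3 h) and next given aluminum hydroxide (20 µg/mL, 3 h), a sequence used to induce pyroptosis. Every library was thus stimulated, and the comparison is between the labelled groups under stimulation. The depth was 45128793, 49734046 and 39590527 counts for WT replicates 1 to 3, and 41645500, 39566835 and 45161392 counts for replicates 1 to 3 of the libraries labelled cKO. No source used here says whether the libraries of a group came from different mice, so p-values measure the spread between these libraries.

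The labels were checked first. *Gsdmd*, the targeted gene (chromosome 15, 75734176 to 75739257, mm39), was counted 609, 699 and 549 times in WT and 885, 937 and 1045 times in the libraries labelled cKO, so it was not reduced there. The count covers the whole gene and does not separate the floxed exons. Because this goes against the label, the group is called "libraries labelled cKO" throughout and each direction rests on the label. *Xist*, which female cells transcribe from their silenced X chromosome, was counted 4, 0 and 2 times in WT and 48762, 44817 and 51216 times in the libraries labelled cKO. The Y-linked *Ddx3y* was counted 4785, 5455 and 4033 times in WT, and *Ddx3y*, *Eif2s3y*, *Uty* and *Kdm5d* had 0 counts in every library labelled cKO. The sex of the cells and the genotype label therefore cannot be told apart in any value given here. The background strain of the cKO mice was not stated in the sources used here, so a difference of strain cannot be told apart from the label either. Of 6 osteocyte markers, *Sost* had 0 counts in every library, *Dmp1* 0 to 6, *Mepe* 0 to 2 and *Phex* 2 to 22. *Fgf23* was counted 14, 34 and 8 times in WT and 6, 0 and 0 times in the libraries labelled cKO. Only *Pdpn*, which other stromal cells also express, was abundant (234 ± 7.58 CPM in WT and 193 ± 3.57 CPM in the libraries labelled cKO, SD, n = 3 each).

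The make-up of the class II transcripts differed between the groups. *H2-Ab1* fell in the libraries labelled cKO, whereas *Cd74* and *H2-DMb2* rose. Of the 8 genes, 6 had enough counts to be tested, and among these 2 were called higher and 1 lower. A call needed an adjusted p-value below 0.05 and a log2 fold change of at least 1 in size. Of all 17146 tested genes, 6.56% were called higher and 4.64% lower. *H2-DMb2* passed the count filter only through the libraries labelled cKO, so the number of called genes is given as a description. *H2-Aa* and *Ciita* were not tested.

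Levels of different genes are compared as counts per 1000000 per kilobase of gene length (CPM per kb). In WT the order was *H2-Ab1* (7.50 ± 0.557 CPM per kb, SD, n = 3), *H2-DMb1* (4.88 ± 0.408), *H2-DMa* (1.56 ± 0.154), *Cd74* (0.325 ± 0.156), *H2-Eb1* (0.187 ± 0.153) and *H2-DMb2* (0.0123 ± 0.0127), with *H2-Aa* and *Ciita* at 0. The WT libraries overlapped for *Cd74* and *H2-Eb1*, and for *H2-DMb2*, *H2-Aa* and *Ciita*, so these neighbours were not separated by their spread. In the libraries labelled cKO the order was *H2-DMb1* (6.52 ± 0.234 CPM per kb, SD, n = 3), *H2-Ab1* (1.37 ± 0.186), *H2-DMa* (1.19 ± 0.0661), *Cd74* (0.889 ± 0.124), *H2-DMb2* (0.289 ± 0.0634), *H2-Eb1* (0.131 ± 0.0459), *H2-Aa* (0.0215 ± 0.0278) and *Ciita* (0.00560 ± 0.00578). There, *H2-Ab1* overlapped with *H2-DMa*, and *H2-Aa* with *Ciita*. The median tested gene stood at 3.35 CPM per kb in WT and 3.53 CPM per kb in the libraries labelled cKO, so only *H2-Ab1* in WT and *H2-DMb1* in both groups were above it.

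**Figure D1:**
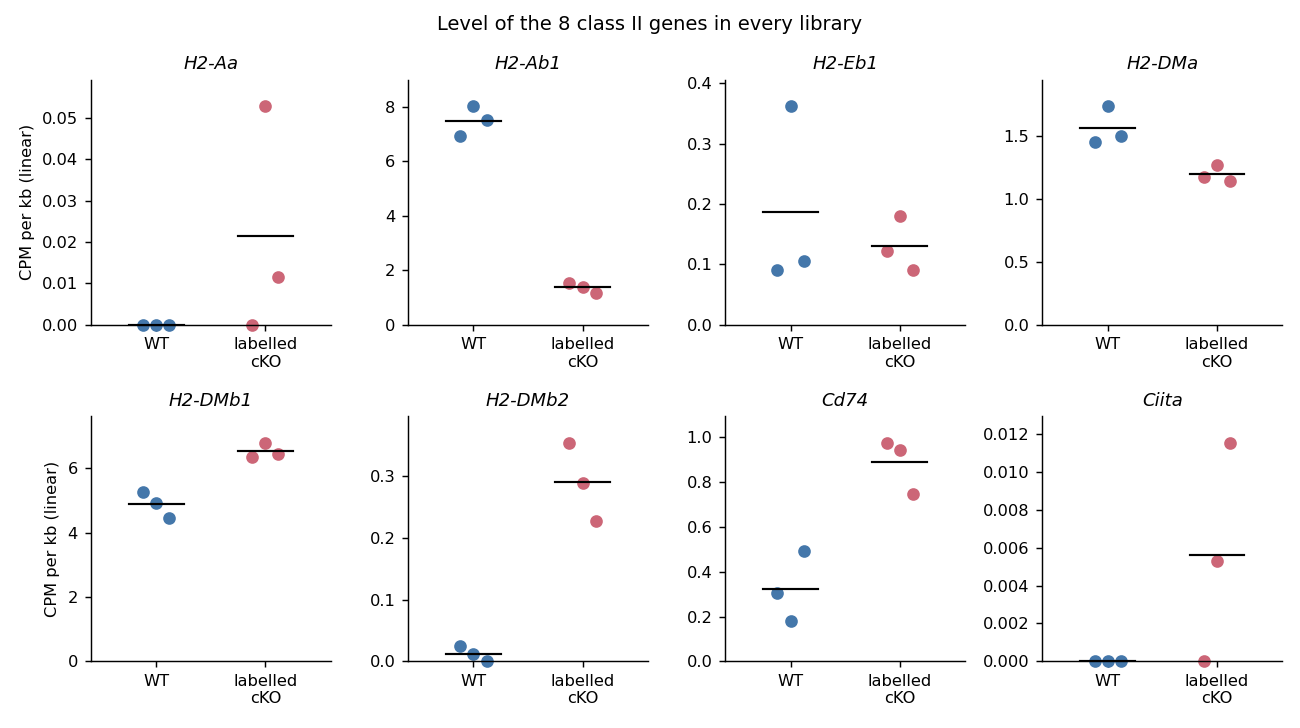
Level of each of the 8 class II genes in CPM per kb on linear axes that start at 0 and differ between panels. Each point is 1 library, blue for WT and red for the libraries labelled cKO, and the black line is the mean of 3. *H2-Ab1* was lower and *Cd74* and *H2-DMb2* were higher in all 3 libraries labelled cKO than in any WT library, and *H2-Aa* and *Ciita* were at 0 in WT.

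*H2-Ab1* encodes the β chain of the I-A molecule and lies on chromosome 17 from 34476663 to 34488393 (mm39, plus strand). The WT libraries held 801, 1025 and 752 counts of it, and the libraries labelled cKO held 167, 142 and 137. Every library labelled cKO lay below every WT library, and the spread within each group was small. Levels were 19.3 ± 1.43 CPM in WT and 3.52 ± 0.478 CPM in the libraries labelled cKO (SD, n = 3 each). The fitted level was 5.48-fold lower, with a log2 fold change of -2.46 (standard error 0.12) and a Benjamini-Hochberg adjusted p of 2.2e-11 (edgeR quasi-likelihood test). Of all tested genes, 1.34% had a lower log2 fold change. Per length, 31.8% of the tested genes stood above *H2-Ab1* in WT and 66.6% in the libraries labelled cKO. In the GENCODE M39 annotation of the same build the gene has the same start and end, and the first of its 8 protein-coding transcripts begins at 34482183, 5520 bases inside the gene. The count per gene does not tell which of the 21 annotated transcripts the reads came from.

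The partner of this chain was nearly absent. *H2-Aa*, the α chain of I-A, lies on the minus strand of chromosome 17 from 34501718 to 34506797. It had 0 counts in all 3 WT libraries and 0, 8 and 2 counts in the libraries labelled cKO. A count of 0 allows up to 3 counts, which is 0.0604 to 0.0772 CPM in the WT libraries. In the libraries labelled cKO, replicate 2 was the only library above 3 counts. No fold is given, since the other libraries were at or under that floor. Floors and intervals cover counting error only, because copies of a molecule made by PCR were not marked and may be counted more than once.

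*H2-Eb1*, the β chain of the I-E molecule, was also scarce. It was counted 8, 35 and 8 times in WT and 10, 14 and 8 times in the libraries labelled cKO. The groups overlapped, and WT replicate 2 was the highest library. The log2 fold change was -0.54 (standard error 0.63, Benjamini-Hochberg adjusted p = 0.549, edgeR quasi-likelihood test), and it was 0.39 without WT replicate 2. C57BL/6 mice lack I-E at the cell surface because their E α gene is not transcribed. That gene, *H2-Ea*, had 0 counts in every library, as did the other class II chains *H2-Eb2*, *H2-Oa* and *H2-Ob*, while a further symbol of the list, *H2-Ea-ps*, was not found in the table. Thus 4 of 4 such chains found in the table had 0 counts, and none could be tested.

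The DM genes load peptides onto class II molecules in the endosome, and their β chain is encoded by a pair of neighbouring genes. *H2-DMb1* (chromosome 17, 34372046 to 34379204) was counted 399, 411 and 291 times in WT and 449, 454 and 492 times in the libraries labelled cKO. After scaling for depth the groups did not overlap, with 7.49 to 8.86 CPM in WT and 10.7 to 11.4 CPM in the libraries labelled cKO. The log2 fold change of 0.42 (standard error 0.11, Benjamini-Hochberg adjusted p = 0.00656, edgeR quasi-likelihood test) was below the fold limit, so the gene was not called. *H2-DMb1* was thus the most abundant class II gene of the libraries labelled cKO, where 35.9% of the tested genes stood above it per length.

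*H2-DMb2* (chromosome 17, 34362281 to 34370529) was counted 2, 1 and 0 times in WT and 26, 20 and 18 times in the libraries labelled cKO. It was at or near 0 in WT and low but present in every library labelled cKO. Summed over the libraries and scaled for depth, 64 against 3 counts is a ratio of 22.4, with an exact 95% counting interval from 7.32 to 111 (Clopper-Pearson). The log2 fold change was 4.33 (standard error 0.79, Benjamini-Hochberg adjusted p = 0.000258, edgeR quasi-likelihood test), and it was 5.16 without WT replicate 1. The gene passed the count filter only through the libraries labelled cKO, so this test is given as a description. In the fit of every gene with at least 1 count, the log2 fold change was 4.34. With WT at or near 0 counts, the size of this fold is poorly known. Both β genes share sequence. Of the 50-base words in the GENCODE transcripts of *H2-DMb2*, 18.9% also occur in those of *H2-DMb1*, as do 3.34% of the 150-base words. Reads from the shared stretches could have been split or dropped by the counting, so the smaller *H2-DMb2* counts are uncertain to that extent.

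*H2-DMa* encodes the only α chain of DM and lies on chromosome 17 from 34338515 to 34358075. WT held 225, 297 and 200 counts of *H2-DMa*, against 170, 174 and 179 counts in the libraries labelled cKO. The groups did not overlap in CPM (5.38 ± 0.530 in WT and 4.12 ± 0.228 in the libraries labelled cKO, SD, n = 3 each). The log2 fold change was -0.39 (standard error 0.16, Benjamini-Hochberg adjusted p = 0.0631, edgeR quasi-likelihood test), which did not pass. With upper quartile scaling it was -0.46 (Benjamini-Hochberg adjusted p = 0.029, edgeR quasi-likelihood test), which was still below the fold limit in size. *Brd2*, on the opposite strand, overlaps the gene by 3094 bases and was counted 10338 to 14797 times per library. The library kit kept strand information, but the strand setting of the counting was not given in the sources used here, so reads of *Brd2* in the *H2-DMa* count cannot be told apart.

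*Cd74*, the invariant chain, is also the cell surface receptor of the cytokine MIF. It lies apart from the other genes, on chromosome 18 from 60936920 to 60945724. *Cd74* was counted 23, 15 and 32 times in WT and 69, 63 and 57 times in the libraries labelled cKO. Every library labelled cKO was higher than every WT library, although all 6 counts were low for a gene that is among the most abundant in professional antigen-presenting cells. Levels were 0.546 ± 0.263 CPM in WT and 1.49 ± 0.208 CPM in the libraries labelled cKO (SD, n = 3 each). The fitted level was 2.76-fold higher, with a log2 fold change of 1.47 (standard error 0.39) and a Benjamini-Hochberg adjusted p of 0.00632 (edgeR quasi-likelihood test). Of all tested genes, 4.82% had a higher log2 fold change, and 73.1% still stood above *Cd74* per length in the libraries labelled cKO. When any 1 library was dropped, the log2 fold change was 1.15 to 1.87.

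*Ciita*, the coactivator of class II transcription, lies on chromosome 16 from 10297923 to 10346282. It had 0 counts in all 3 WT libraries and 0, 2 and 5 counts in the libraries labelled cKO. Replicate 3 of the libraries labelled cKO was the only library above 3 counts, and no fold is given. *Dexi*, on the opposite strand, overlaps *Ciita* by 25888 bases and was counted up to 755 times in a library. *H2-Ab1*, *H2-DMb1* and *H2-DMa* were thus counted at least 137 times in every library while *Ciita* was counted at most 5 times.

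The proportions among the class II genes were compared within each library. The summed level of the 8 genes was 14.1, 15.3 and 14.1 CPM per kb in WT and 10.5, 10.9 and 9.84 CPM per kb in the libraries labelled cKO. *H2-Ab1* made up 51.8 ± 2.28% of this sum in WT and 13.1 ± 1.42% in the libraries labelled cKO, and *H2-DMb1* 33.8 ± 3.19% and 62.7 ± 2.57% (SD, n = 3 each). The main transcript thus differed between the groups, with *H2-Ab1* leading in WT and *H2-DMb1* in the libraries labelled cKO. *H2-DMa* had nearly the same share in both groups, at 10.8 ± 0.554% and 11.5 ± 0.272%, and *Cd74* had 2.28 ± 1.16% and 8.50 ± 0.857%.

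**Figure D2:**
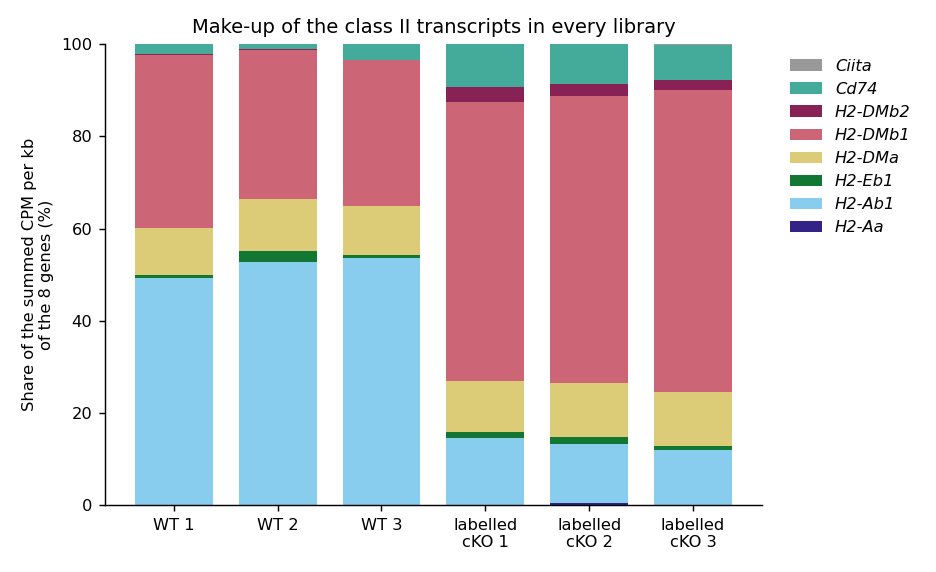
Share of each class II gene in the summed CPM per kb of the 8 genes, in percent, with 1 bar for each library. *H2-Ab1* took 49.2% to 53.5% of the sum in the WT libraries and 11.9% to 14.7% in the libraries labelled cKO, and *H2-DMb1* took 31.6% to 37.5% and 60.4% to 65.4%.

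The ratio of *Cd74* to the classical chains (*H2-Aa*, *H2-Ab1* and *H2-Eb1* summed, per length) was 0.0433, 0.0214 and 0.0642 in WT and 0.586, 0.581 and 0.585 in the libraries labelled cKO. The invariant chain therefore stood below the classical chains in every library, and the groups did not overlap. The ratio of the DM chains to the classical chains was 0.961, 0.794 and 0.778 in WT and 4.72, 5.14 and 6.12 in the libraries labelled cKO, so that DM transcripts were fewer than classical ones per length in WT and more abundant in the libraries labelled cKO. The ratio of *H2-DMa* to both DM β genes was 0.320 ± 0.0411 in WT and 0.175 ± 0.00396 in the libraries labelled cKO (SD, n = 3 each). The ratio of *H2-Eb1* to *H2-Ab1* was 0.0241 ± 0.0182 and 0.0955 ± 0.0301 (SD, n = 3 each). For *H2-Aa* to *H2-Ab1* no log ratio could be computed, because *H2-Aa* was at 0 in 4 libraries. Differences of the mean log2 ratio were 3.90 for *Cd74*, 2.66 for the DM chains, -0.86 for *H2-DMa* and 2.19 for *H2-Eb1*. The groups did not overlap in any of these 4 ratios, and each gave p = 0.1 in a two-sided exact permutation test over the 6 libraries, which is the smallest p that 3 against 3 libraries allow, and adjusted p = 0.1 over the 5 ratios tested.

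Macrophages, dendritic cells and B cells are the usual sources of class II transcripts, so their markers were read in the same libraries. Of 16 macrophage markers, 14 were tested and 14 were called higher in the libraries labelled cKO, with a median log2 fold change of 3.08. Their summed level was 1149, 1248 and 1293 CPM in WT and 6307, 6588 and 6636 CPM in the libraries labelled cKO, a 5.29-fold difference of the means. *Lyz2* was the most abundant, and without it the difference was 8.15-fold. *Csf1r* had 1085 to 1276 counts in WT and 9340 to 11055 counts in the libraries labelled cKO, whereas *Cx3cr1* (0 to 11 counts) and *Cd163* (0 to 15 counts) were too low in all 6 libraries to be tested. In RNA from whole cultures, fewer cells of a type and less RNA per cell cannot be told apart. The summed class II level relative to that of the macrophage markers, both per length, was 0.0167 ± 0.00104 in WT and 0.00237 ± 0.000148 in the libraries labelled cKO (SD, n = 3 each), a 7.05-fold lower ratio (p = 0.1, two-sided exact permutation test, the smallest possible, and adjusted p = 0.1 over the 5 ratios). *H2-Ab1* thus fell where the macrophage markers rose, while *Cd74* and *H2-DMb2* moved in the same direction as the markers. The part of macrophages in these differences was not tested.

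Many, though not all, markers of the other antigen-presenting cells were at or near 0. Among 9 dendritic cell markers, *Flt3*, *Cd209a* and *Siglech* had 0 counts in every library, and *Xcr1*, *Clec9a*, *Batf3* and *Ccr7* had at most 14. The summed level of these 9 markers was 3.51, 3.44 and 3.14 CPM in WT and 9.29, 9.30 and 5.96 CPM in the libraries labelled cKO. In the libraries labelled cKO it was led by *Itgax*, which macrophages also express and which was 1 of 2 tested markers called higher. In WT it was led by *Zbtb46*, a factor of classical dendritic cells, which was counted 124, 124 and 62 times in WT and 142, 113 and 60 times in the libraries labelled cKO and was not called. Among 7 B cell markers, *Ms4a1* had 0 counts in every library, *Cd79a* at most 2, *Cd79b* at most 4 and *Ighm* 10 to 31. *Pax5* was counted 13, 29 and 8 times in WT and 2, 6 and 2 times in the libraries labelled cKO and was not tested. The sum of the 7 markers was 45.5, 50.03 and 52.1 CPM in WT and 41.4, 44.1 and 35.3 CPM in the libraries labelled cKO. It was almost entirely *Ebf1*, which stromal cells also express, and 1 of 3 tested markers, *Cd22*, was called higher. *Cd22* passed the count filter only through the libraries labelled cKO. Of 6 T cell markers, *Cd3d*, *Cd3e*, *Cd3g* and *Cd8a* had 0 counts in every library, *Lck* led a sum of at most 0.618 CPM, and the 1 tested marker was not called by edgeR, DESeq2 or limma-voom and was not below an unadjusted p-value of 0.05.

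Single markers of other cell types also differed between the groups. Of 6 tested osteoclast markers 2 were called higher and 1 lower (8 listed, led by *Ctsk* in WT and on average by *Atp6v0d2* in the libraries labelled cKO, summed 146 ± 5.18 CPM in WT and 167 ± 15.5 CPM in the libraries labelled cKO). Of 5 endothelial markers, *Kdr* was called higher and *Pecam1*, *Cdh5*, *Tek* and *Emcn* lower, and their sum stayed low at 6.66 ± 0.222 and 6.50 ± 0.200 CPM. *Cdh5*, *Tek* and *Emcn* passed the count filter only through the WT libraries. Of 2 tested neutrophil markers, *S100a8* was called higher, with *S100a9* at 0 counts in every library. Of 5 tested osteoblast markers, *Ibsp* was called higher and 0 were called lower. At an adjusted p-value below 0.05 in edgeR's test, 2 of them were higher and 3 lower. The summed level of the osteoblast markers, led by *Col1a1*, was 5879 ± 318 CPM in WT and 3745 ± 141 CPM in the libraries labelled cKO (SD, n = 3 each). Whether any of these cells carried the class II transcripts was not tested.

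The genes around the class II molecules were grouped in 9 lists, with 53 symbols, 52 of them in the table and 44 tested. Together, 15 were called higher, 0 lower and 29 neither, with a median log2 fold change of 0.47 against 0.01 over all tested genes. Of all tested genes, 6.56% were called higher and 4.64% lower. At an unadjusted p-value below 0.05 in edgeR's quasi-likelihood test, 28 of the 44 were higher and 6 lower, where 23.6% of all tested genes were higher and 22.4% lower. DESeq2 called 14 higher and 0 lower, and limma-voom 15 higher and 0 lower.

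The factors that bind class II promoters were counted in every library. RFX5, RFXANK and RFXAP form the RFX complex on the X box, and NF-Y, made of NFYA, NFYB and NFYC, binds the Y box. Of these genes and *Creb1*, 0 of 7 were called by edgeR, DESeq2 or limma-voom (median log2 fold change 0.05), and 2 were higher and 1 lower at an unadjusted as well as an adjusted p-value below 0.05. *Rfx5* stood at 25.4 ± 0.269 CPM in WT and 26.1 ± 0.974 CPM in the libraries labelled cKO, and *Rfxap* at 9.83 ± 0.710 and 10.2 ± 1.13 CPM (SD, n = 3 each). *Nfya* had the largest difference of the 7, with a log2 fold change of 0.43 (standard error 0.052). Promoter-binding factors were thus counted at least 351 times in every library, against at most 5 counts of *Ciita*.

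Interferon-γ induces *Ciita* through the kinases JAK1 and JAK2. *Ifng* itself had 0 counts in every library. Of the 8 tested genes of this route, 0 were called by edgeR, DESeq2 or limma-voom (median log2 fold change -0.18), and 2 were higher and 4 lower at an unadjusted p-value below 0.05. *Jak2* was counted 3907, 4602 and 3660 times in WT and 2664, 2539 and 2971 times in the libraries labelled cKO. Its log2 fold change was -0.51 (standard error 0.049) and that of *Irf1* -0.41 (standard error 0.11), while *Irf2* had 0.53 (standard error 0.073) and *Ifngr1* 0.37 (standard error 0.055). The regulators of *Ciita* in blood cells formed a contrast. All 3 tested genes were called higher, with a median log2 fold change of 2.99, where 6.56% of all tested genes were called higher. *Spi1*, which encodes the myeloid factor PU.1, was counted 250, 354 and 378 times in WT and 2445, 2384 and 2702 times in the libraries labelled cKO, a fitted 7.97-fold higher level. The fitted level of *Irf8* was 6.60-fold higher. *Prdm1*, whose product BLIMP1 represses *Ciita* in plasma cells, rose from 10 to 12 counts in WT to 91 to 142 counts in the libraries labelled cKO. It passed the count filter only through the libraries labelled cKO, so the number of called regulators is given as a description. *Irf4* was counted 0 times in every WT library and 2 times in each library labelled cKO and was not tested. *Spi1* and *Irf8* are expressed by macrophages, whose markers rose in the same libraries.

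Several genes that act on class II molecules after their synthesis rose, as did all 14 tested macrophage markers (median log2 fold change 3.08), and the part of macrophages in this was not tested. Among 7 endosomal processing genes the call was higher for 4 and lower for 0, the median log2 fold change was 1.01, and at an unadjusted p-value below 0.05 in edgeR's test 6 were higher and 0 lower. *Ctss*, the protease that trims the invariant chain in macrophages and dendritic cells, was counted 3304, 3975 and 2916 times in WT and 28130, 27673 and 31163 times in the libraries labelled cKO. This corresponded to 76.2 ± 3.47 and 683 ± 13.9 CPM (SD, n = 3 each), a fitted 8.97-fold higher level. *Lgmn*, an asparaginyl endopeptidase, was 2.50-fold higher in the fit. *Ctsb* and *Ctsd* lay at the fold limit, with log2 fold changes of 1.01 and 1.04, so that 2 genes of this list were called with upper quartile scaling, 3 with DESeq2 and 4 with limma-voom. *Ifi30*, the thiol reductase of antigen processing, stood at 28.9 ± 0.780 CPM in WT and 27.3 ± 1.50 CPM in the libraries labelled cKO (SD, n = 3 each), and *Sppl2a*, which cleaves the last membrane stub of the invariant chain, had a log2 fold change of 0.36. *Marchf1*, the ligase that marks class II molecules for removal from the surface, rose from 2.47 ± 0.191 to 18.0 ± 0.559 CPM (SD, n = 3 each), and *Cd83*, which opposes it, from 0.903 ± 0.223 to 2.57 ± 0.510 CPM. *Marchf8* was not called, so 2 of these 3 genes were higher and 0 lower (3 and 0 at an unadjusted p-value below 0.05, and 2 and 0 by DESeq2 and by limma-voom).

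**Figure D3:**
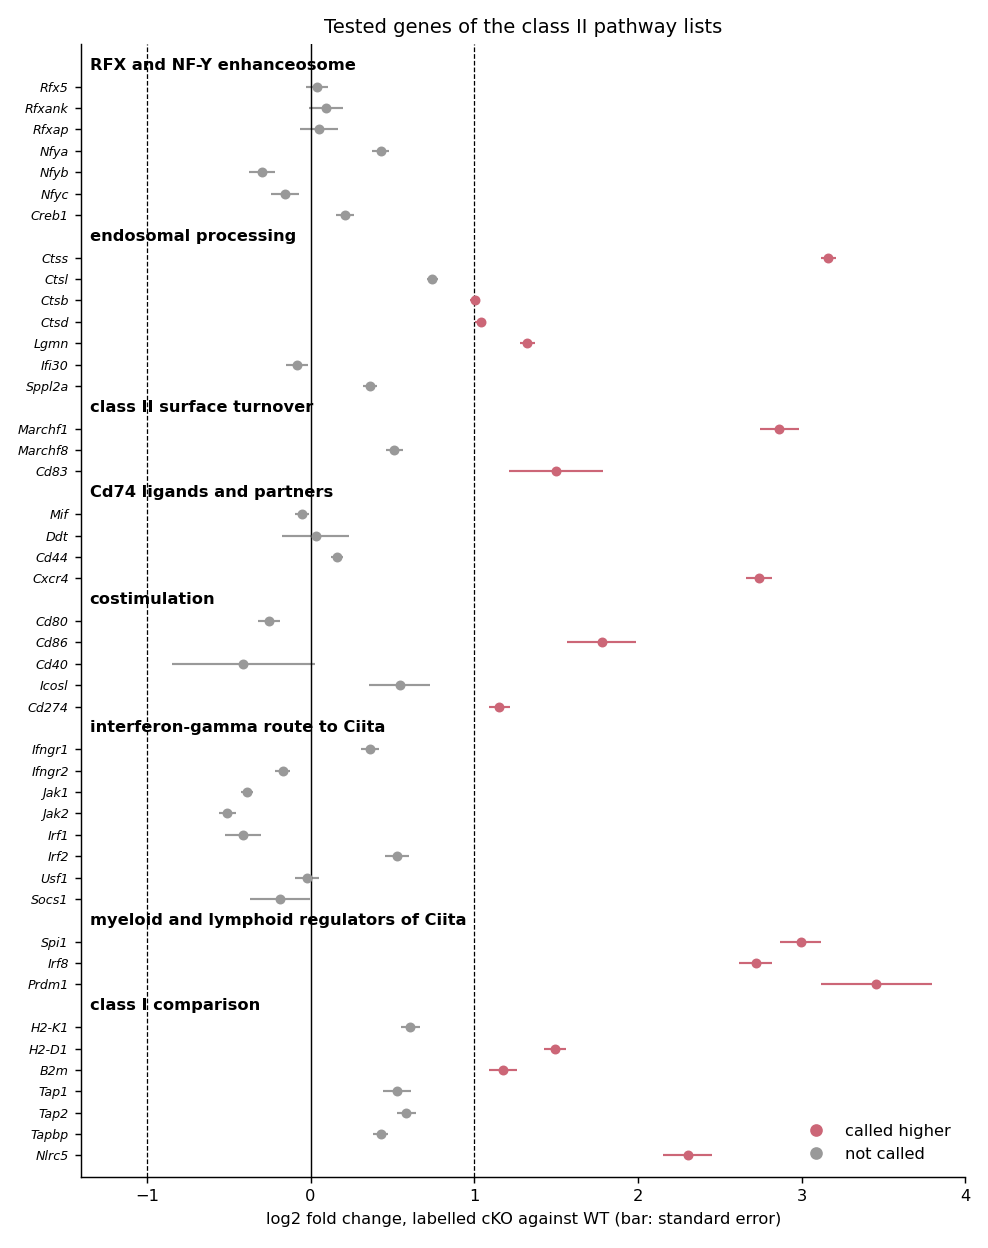
Log2 fold change between the libraries labelled cKO and WT (3 each) for the 44 tested genes of the pathway lists, with the standard error as a bar. Red points were called higher, grey points were not called, and dashed lines mark the fold limit. The 15 higher genes lay between 1.01 and 3.46, and 0 genes were called lower.

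Of the ligands and partners of CD74, 1 of 4 tested genes was higher and 0 lower by the call (2 and 0 at an unadjusted p-value below 0.05, and 1 and 0 by DESeq2 and by limma-voom), with a median log2 fold change of 0.10. *Cxcr4*, a coreceptor of MIF, had 336 to 366 counts in WT and 2134 to 2372 counts in the libraries labelled cKO, a fitted 6.68-fold higher level. *Mif* was abundant in both groups at 320 ± 15.7 and 309 ± 6.83 CPM (SD, n = 3 each), and *Cd44*, the signaling partner of CD74, had a log2 fold change of 0.16. *Cxcr2* had at most 2 counts and was not tested.

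Costimulatory ligands accompany class II molecules on antigen-presenting cells. By the call, 2 of 5 tested genes were higher and 0 lower (3 and 1 at an unadjusted p-value below 0.05, and 2 and 0 by DESeq2 and by limma-voom), with a median log2 fold change of 0.54. *Cd86* was counted 66, 109 and 71 times in WT and 302, 192 and 313 times in the libraries labelled cKO, a fitted 3.43-fold higher level. *Cd274*, the inhibitory ligand PD-L1, was 2.22-fold higher in the fit. *Cd80* had a log2 fold change of -0.26 and *Cd40* was counted 16 to 41 times per library.

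Class I genes were read as a comparison. By the call, 3 of 7 genes were higher and 0 lower (7 and 0 at an unadjusted p-value below 0.05, and 3 and 0 by DESeq2 and by limma-voom), with a median log2 fold change of 0.61. *H2-D1*, a class I heavy chain, rose from 329 ± 45.8 to 925 ± 4.25 CPM, and *B2m*, its light chain, from 456 ± 86.1 to 1031 ± 38.7 CPM (SD, n = 3 each). *Nlrc5*, which is to class I genes what *Ciita* is to class II genes, was counted 115, 198 and 166 times in WT and 777, 715 and 771 times in the libraries labelled cKO. Its fitted level was 4.94-fold higher, with a log2 fold change of 2.31 (standard error 0.15) and a Benjamini-Hochberg adjusted p of 7.81e-10 (edgeR quasi-likelihood test). Per length, *B2m* stood at 530 CPM per kb in WT, against 7.50 CPM per kb for *H2-Ab1*, the most abundant class II gene there.

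Position was then considered, since 6 of the 8 genes lie on chromosome 17 between 34338515 and 34535648. The table lists 19 genes in this interval. Of the 13 that are not among the 8, 7 were tested, 3 were called higher, 0 lower and 4 neither by edgeR, DESeq2 and limma-voom alike, and at an unadjusted p-value below 0.05 in edgeR's test 6 were higher and 1 lower. Of all tested genes, 6.56% were called higher and 4.64% lower, and 23.6% were higher and 22.4% lower by the unadjusted p-value. *Psmb8* and *Psmb9* encode subunits of the immunoproteasome, which makes peptides for class I molecules. *Psmb8* was counted 205, 250 and 148 times in WT and 739, 693 and 762 times in the libraries labelled cKO, and *Psmb9* 61, 77 and 47 and then 169, 219 and 203 times. *Gm20496*, with 7 to 11 counts in WT and 48 to 70 counts in the libraries labelled cKO, overlaps *Psmb8* by 2139 bases and *Tap2* by 1923 bases on the opposite strand, and its count is therefore uncertain. It passed the count filter only through the libraries labelled cKO, so the number of called genes of the interval is given as a description. *H2-Ab1* was the only tested gene of the interval that was called lower, and the nearest tested genes on either side of it, *Tap2* and *H2-Eb1*, were not called.

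The promoters were searched for the X and Y boxes because CIITA acts through them. RefSeq promoter sequences (GRCm38.p6) were found for 5 of the 8 genes, and *H2-Ab1*, *Cd74* and *Ciita* had no entry. In the 250 bases before each start, 3 motifs were searched on both strands: TGATTGG for the Y box, AACNGATG for the X box and TGACGTCA, a cAMP response element such as the one often joined to the X box. The letters were chosen with class II promoters in view, and only exact matches were counted. A box with other letters would have been missed, so a window without a match may still hold one. Of all 32851 promoter windows, 7.23% held TGATTGG, 1.99% AACNGATG and 1.546% TGACGTCA, and 0.146% held both the X and the Y motif. Of the 5 class II genes, *H2-Eb1*, *H2-DMb1* and *H2-DMb2* held both the X and the Y motif, *H2-Aa* held the response element and the Y motif, and the 2 windows of *H2-DMa* held none of the 3. A stretch around the motifs of each of the 4 genes is printed 5′ to 3′ on the strand of the gene, to set the scarce *H2-Aa* beside the DM β genes and *H2-Eb1*, and capitals mark the motifs.
H2-Aa: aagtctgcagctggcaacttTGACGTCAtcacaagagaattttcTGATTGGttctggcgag
H2-Eb1: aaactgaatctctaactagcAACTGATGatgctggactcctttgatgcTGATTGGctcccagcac
H2-DMb1: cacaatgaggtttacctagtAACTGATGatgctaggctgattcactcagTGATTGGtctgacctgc
H2-DMb2: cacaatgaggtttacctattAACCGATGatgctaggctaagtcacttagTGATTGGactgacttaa

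These stretches lie upstream of the annotated starts, at chr17:34287857-34287917 (minus strand) for *H2-Aa*, chr17:34305758-34305822 (plus strand) for *H2-Eb1*, chr17:34153079-34153144 (plus strand) for *H2-DMb1* and chr17:34145108-34145173 (plus strand) for *H2-DMb2*, all in GRCm38.p6. The Y motif began 50 bases before the start in *H2-Aa*, 61 in *H2-Eb1*, 63 in *H2-DMb1* and 92 in *H2-DMb2*. Between the X and the Y motif lay 20 bases in *H2-Eb1* and 21 in both DM β genes. In *H2-Aa*, 16 bases lay between the response element and the Y motif, a different distance that cannot be compared with these. Of the 66 bases printed for each DM β gene, 57 are identical at the same position. *H2-DMb1* and *H2-DMb2* thus share this stretch, while their levels were 4.88 and 0.0123 CPM per kb in WT, where *H2-DMb2* had at most 2 counts, and 6.52 and 0.289 CPM per kb in the libraries labelled cKO. A match describes the letters in the window and is no measure of binding.

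The tested genes outside the lists whose level was most like that of *Cd74* over the 6 libraries were *Incenp*, *Cul9*, *Klc4*, *Map4k2* and *Bckdhb*, in falling order of Pearson r from 0.998 to 0.994, all on the log2(CPM + 1) scale. The correlation pools both groups, and 346 of 17057 genes had r above 0.95. None of these 5 genes was called, and their log2 fold changes lay between 0.18 for *Cul9* and 0.77 for *Bckdhb*.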

How the data were processed

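The authors trimmed paired-end reads, aligned them to mm39 (GRCm39) with HISAT2 2.0.5 and counted them on genes with featureCounts (1.55.0-p3 in the submitters' processing notes, while the methods name another release). They deposited raw counts per gene, without normalization, and a gene length in bases. Each column of counts was matched to its library by name. In GENCODE M39 each of the 8 genes has the chromosome given in the deposited table, and 6 share their start or end with it. Reference transcripts and promoters were used as given.

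Fits were made with edgeR 4.0.16 in R 4.3.3 (filterByExpr, TMM, glmQLFit without robust estimation, glmQLFTest), with genotype as the only term and Benjamini-Hochberg adjustment over the 17146 tested genes. For CPM, each count was divided by its library's effective size (TMM) and multiplied by 1000000. Log2 fold changes are the libraries labelled cKO against WT. Level ratios were tested with exact permutation tests over the 6 libraries. The floor was 3 counts per library. The scripts were tested on simulated data. Replicates of a group differed by more than sampling noise, with 4.82 to 13.9 chi-square units per gene between pairs.

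The 8 genes and all lists were chosen with earlier results of these data known. The genes named were these 8, *Gsdmd*, *Xist* and Y-linked genes, genes of the list under discussion, called genes of the interval and the 5 genes most like *Cd74*. Cell type markers were named within their lists. Of the planned lists, 2 genes are not reported. *Brd2*, *Dexi* and *Tap2* were named for their position. Alternatives were DESeq2 1.42.0, limma-voom (limma 3.58.1), other scalings, filters and limits, halved counts, a block and each library left out. Cultures and assays of the study other than these 6 libraries were not analysed here.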

Additional observations from a re-analysis of the deposited data

How the results depend on the processing

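Across 17 alternatives, *H2-Ab1* was called lower and *Cd74* higher in all 16 that give calls (log2 fold change -2.55 to -2.35 and 1.15 to 1.87), and *H2-DMb2*, whose counts in WT were at or near 0, was tested in 14 of these (3.87 to 5.16), which included the fit of every gene with at least 1 count (4.34). With at least 10 counts in every library, 1 of the 8 genes was called higher, and 1 with counts halved, because *H2-DMb2* was then not tested. Over all genes, 522 were called lower with at least 10 counts in every library, where fewer genes are tested, and 3445 were called higher and 3285 lower without a fold limit, against 1124 and 796. Without WT replicate 2, the log2 fold change of *H2-Eb1* turned from -0.54 to 0.39, and it was -0.87 without WT replicate 1 (for the former, Benjamini-Hochberg adjusted p = 0.737, edgeR quasi-likelihood test, 0.36 to 0.791 over the 14 alternatives that tested it); WT replicate 2 held 35 counts and the other WT libraries 8 each. *H2-DMb1* and *Gsdmd* passed only without the fold limit. With every gene of at least 1 count tested, *H2-Aa* and *Ciita* had Benjamini-Hochberg adjusted p = 0.133 and 0.22 (edgeR quasi-likelihood test).

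With the replicate number as a block (replicate block), 2 of the 8 genes were called higher and 1 lower, and 1087 and 772 over all genes. The deviations of same-numbered libraries were not correlated (r = -0.0178 to -0.000976, against -0.0178 to 0.0143 over all pairs), so no shared effect of the replicate number was seen. Whether same-numbered cultures were prepared together was not stated in the sources used here. Depth limits *H2-Aa*, *Ciita*, *H2-Eb1* and *H2-DMb2*, where differences rest on few counts.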
